A study of Mus musculus with 16 samples.

Results

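The comparison was between hearts of Msr quadruple knockout (QKO) mice and hearts of wild type (WT) mice, 4 libraries against 4. The members were the 8 heart libraries of the 16 in the series, taken by the tissue and genotype in the labels. The other 8 libraries were livers of the same animals. All animals were untreated C57BL/6J females aged 3 to 6 months. In the QKO group the 4 genes of the methionine sulfoxide reductases, Msra, Msrb1, Msrb2 and Msrb3, were knocked out, and the WT group was labelled with no allele other than wild type. The labels used here gave neither the design of the knockout alleles nor the breeding of the line. Titles gave each library an animal number, so each group had 4 separate animals, and p-values measure the spread between them. Stranded libraries were prepared from total RNA after removal of ribosomal RNA, and both ends were read for 75 bp.

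Methionine in proteins is readily oxidised to methionine sulfoxide, which exists as S and R forms. Msra, the enzyme encoded by Msra, reduces the S form, and the Msrb enzymes reduce the R form. Msrb1 is a selenoprotein of cytosol and nucleus, Msrb2 is mitochondrial, and Msrb3 is found in the endoplasmic reticulum and mitochondria. In heart muscle, methionine oxidation of the calcium and calmodulin dependent kinase CaMKII is known to be reversed by Msra.

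Total counts per heart were 42.1 M to 72.6 M, and the protein-coding part was 9.21 M to 28.2 M. The hearts differed widely in content. Nuclear ribosomal RNA (rRNA) loci took 7.20% to 56.8% of the count in WT and 0.139% to 54.3% in QKO, lowest in the replicate 4 heart of each group. Counts of Lars2, a mitochondrial leucyl-tRNA synthetase gene, followed the rRNA loci and took 1.79% to 19.4% of the protein-coding count in WT and 0.0224% to 18.1% in QKO. Levels below are CPM, counts per 1 M of the protein-coding library size after trimmed mean of M-values (TMM) scaling. The 8 cardiomyocyte markers were present in every heart, at a summed 110665 to 123433 CPM in WT and 125595 to 128886 in QKO, and 0 of 8 passed the test. All 8 had log2 changes of QKO over WT above 0 (median 0.09). Every QKO heart had a higher sum than any WT heart.

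**Figure D1:**
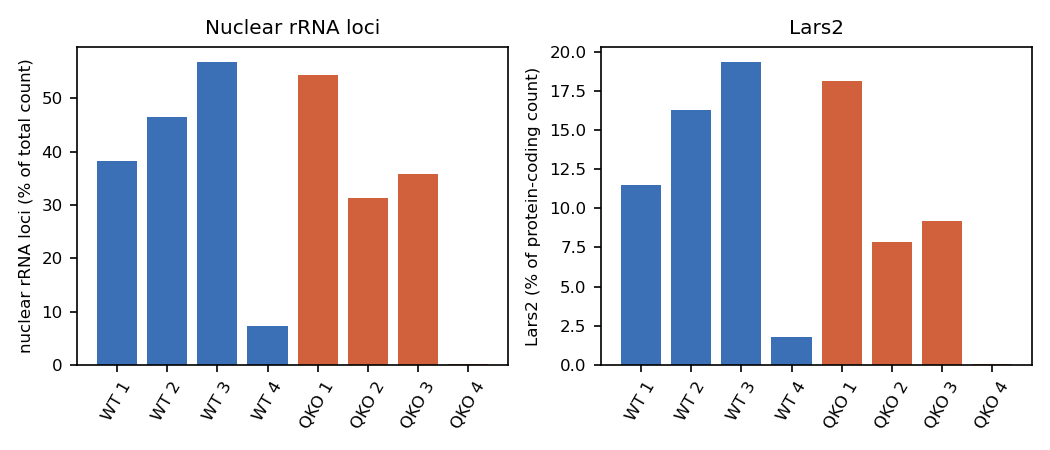
Share of nuclear rRNA loci in the total count (left) and of Lars2 in the protein-coding count (right), in percent, 1 bar per heart library, blue for WT and orange for QKO. The replicate 4 hearts are lowest in both panels, at 7.20% and 0.139% for the rRNA loci, and high and low hearts occur in both groups.

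Of 16457 genes tested by edgeR (quasi-likelihood F test), 28 passed an adjusted p of 0.05 (0.17% of those tested). Of these 12 were higher in QKO hearts (0.0729%) and 16 were lower (0.0972%). The log2 change of all tested genes had a median of -0.00, and 49.7% lay above 0. At an unadjusted p under 0.05 there were 1187 genes, against 823 that chance alone gives. In each of the 28 the WT and QKO libraries did not overlap, which was also true of 2.3% of all tested genes for higher QKO levels and 2.47% for lower. Without any 1 library, 17 of the 28 kept their call and 11 lost it in at least 1 of the 8 fits. In 1 fit with the livers, 13 of the 28 lost their call, Myh7, Mhrt, Gm29015, Piwil2, Vwa8, Fndc3a, Esd, Btaf1, Sucla2, Msra, Msrb1 and C4b among them. No alternative reversed the direction of any of the 28.

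**Figure D2:**
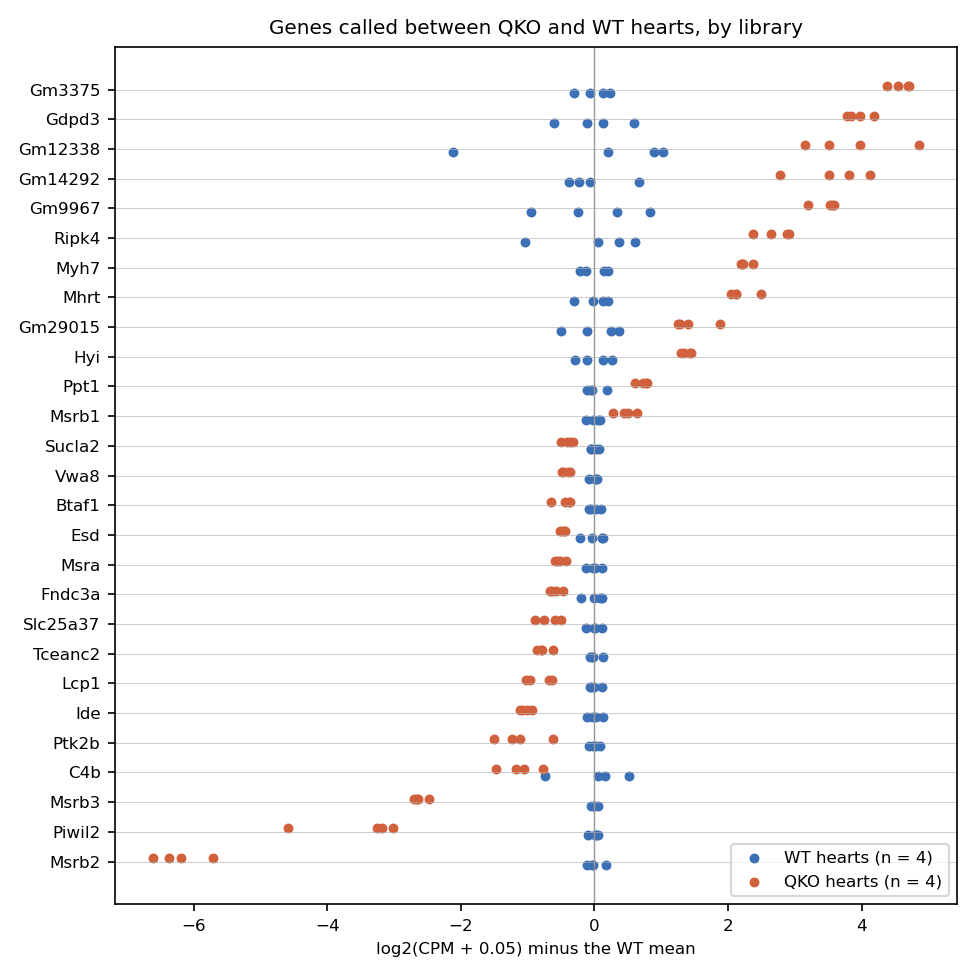
Of the 28 genes that passed the test, 27 are drawn, 1 row each, ordered by log2 change. Points are the 4 WT (blue) and 4 QKO (orange) hearts, as log2(CPM + 0.05) minus the WT mean on the horizontal axis. The groups do not overlap in any row, and the closest pair is in C4b, at 16.5 CPM in a WT and 16.3 in a QKO heart.

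The targeted genes were read first. Msrb2 was at 35.8, 41.4, 34.1 and 36.2 CPM in the 4 WT hearts and at 0.395, 0.656, 0.456 and 0.329 in the 4 QKO hearts. It fell by 6.40 ± 0.17 on the log2 scale (SE, n = 4 and 4; edgeR adjusted p = 5.24e-11), to 1.25% of the WT level. All QKO hearts were near 0 and all WT hearts far above them.

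Msrb3 was at 137, 137, 143 and 133 CPM in WT and at 22.04, 24.8, 21.8 and 21.1 in QKO hearts. It fell by 2.62 ± 0.07 on the log2 scale (edgeR adjusted p = 5.24e-11), so that 16.3% of the WT level was still counted. The groups were far apart and each was narrow.

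Msra was at 28.97, 31.9, 29.7 and 26.98 CPM in WT and at 19.9, 20.5, 19.4 and 21.8 in QKO hearts. The groups did not overlap, but 69.4% of the WT level remained (log2 -0.52 ± 0.09, edgeR adjusted p = 0.0256). Msrb1 was at 45.0, 45.7, 42.5 and 39.7 CPM in WT and at 52.5, 58.8, 61.0 and 67.2 in QKO hearts. Its count was higher in every QKO heart (log2 0.48 ± 0.08, edgeR adjusted p = 0.0361), the opposite direction to the loss that the genotype label names. Counts were per whole gene, so they do not show which exons were read or whether a working transcript was left, and the Msra and Msrb1 counts cannot check the labels. Msrb2 and Msrb3 separated all 8 libraries by genotype. A two-sided exact permutation test over 70 relabellings gave p = 0.0286 for each of the 4 genes, the smallest that 4 against 4 allows. The calls of Msra and of Msrb1 were each lost in 7 of the 8 fits that left out 1 library, with edgeR adjusted p up to 0.125 and 0.136.

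The other genes of methionine oxidation and its reduction did not pass. The list held 14 genes, all tested, and besides the Msr genes 0 of 10 were called. Among them are the Mical oxidases, which oxidise methionine in actin, and the thioredoxin system, which recycles the reductases. The 8 tested CaMKII and calmodulin genes had 0 calls and a median log2 change of 0.03. Camk2d, the main cardiac CaMKII isoform, was at 174 ± 13 CPM in WT and 166 ± 11 in QKO (SD, n = 4 each; edgeR adjusted p = 0.865).

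The most abundant called gene in QKO hearts was Myh7, the slow beta myosin heavy chain that dominates the fetal mouse ventricle. Its levels were 379.5, 477, 357 and 456 CPM in WT and 2139.8, 1904, 1911 and 1941 CPM in QKO hearts. Every QKO heart was far above every WT heart, 4.73-fold on average (log2 2.24 ± 0.10, edgeR adjusted p = 3.90e-08). In the fit of all 16 libraries, which shares 1 spread with liver, the log2 change was 2.25 but the gene did not pass (edgeR adjusted p = 1), nor did Mhrt (0.0827) or Gm29015 (0.559), both described below. Per kb of exon, Myh7 made up 1.44% to 1.98% of the summed Myh6 and Myh7 level in WT hearts and 6.14% to 6.35% in QKO hearts. Myh6, the fast alpha chain of the adult mouse heart, was at 18603 ± 1250 CPM in WT and 23104 ± 1445 in QKO (SD, n = 4 each). The Myh6 groups did not overlap, but the gene did not pass the test (log2 0.31 ± 0.11, edgeR adjusted p = 0.654).

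The 250 bases before the RefSeq start of Myh7 are shown because Myh7 was the most abundant called gene. They lie at chr14:54994627-54994876 on the minus strand of GRCm38.p6 and are written 5′ to 3′ in the direction of the gene. Capitals mark GGAATG, the core of the MCAT element, a site class of muscle promoters, which begins 201 bases before the start.

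Myh7: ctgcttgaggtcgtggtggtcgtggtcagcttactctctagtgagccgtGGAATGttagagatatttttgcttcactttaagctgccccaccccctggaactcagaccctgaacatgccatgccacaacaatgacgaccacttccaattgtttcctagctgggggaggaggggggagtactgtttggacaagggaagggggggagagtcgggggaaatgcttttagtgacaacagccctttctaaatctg

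GGAATG was searched on both strands (CATTCC on the other), and 12.6% of 32851 RefSeq windows of this length hold it, so its presence is a description only.

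Mhrt, a long noncoding RNA known in the mouse heart that is transcribed on the opposite strand, was higher too. It was at 111, 78.3, 106 and 95.6 CPM in WT and at 544, 420.4, 421 and 398 in QKO hearts (log2 2.19 ± 0.12, edgeR adjusted p = 2.36e-07). Again all QKO hearts were above all WT hearts. Mhrt and Myh7 share 3666 bp of their gene spans, and the gene model Gm29015, higher by 1.47 on the log2 scale, shares 331 bp with both. The strand setting of the counting was not given in the sources used here, so reads from the 2 strands cannot be told apart, and these 3 calls are not independent measurements.

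The microRNA miR-208b is encoded within the span of Myh7 and its relative miR-208a within Myh6. Their mature 3p strands, from RefSeq on GRCm38.p6, are shown because the host gene of one changed and they share a seed, bases 2 to 8, in capitals.

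mmu-miR-208a-3p: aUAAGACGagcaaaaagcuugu

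mmu-miR-208b-3p: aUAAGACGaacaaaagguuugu

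Counts on the Mir208b locus did not follow Myh7. They were 2.35 to 4.69 CPM in WT and 1.91 to 4.26 CPM in QKO hearts, which overlap (log2 -0.23, edgeR adjusted p = 0.874). These are long-RNA libraries, in which a mature microRNA is not read, and at most 118 counts fell on the locus in any heart.

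Myh7 was the one member of the fetal and stress programme list to pass, out of 14 tested. The list holds genes of the fetal heart and of stressed adult myocardium. Of its members 9 lay above 0 and 5 below, with a median of 0.18. Acta1, skeletal alpha actin, was at 102, 75.8, 165 and 75.0 CPM in WT and at 165, 150.1, 210 and 328 CPM in QKO hearts. The groups overlapped (log2 1.04 ± 0.26, edgeR adjusted p = 0.321). Nppa, the atrial natriuretic peptide gene, was at 67.0, 58.6, 53.4 and 22.6 CPM in WT and at 42.2, 45.8, 123 and 87.6 CPM in QKO hearts, with overlap (log2 0.60 ± 0.34, edgeR adjusted p = 0.735). Nppb, the B-type natriuretic peptide gene, had a log2 change of the other sign, -0.49 ± 0.29 (edgeR adjusted p = 0.737). Ankrd1, a stress-responsive sarcomere protein, and Postn, a matrix protein of activated fibroblasts, had log2 changes of 0.18 and -0.47 and did not pass (edgeR adjusted p = 0.823 and 0.654). Atrial genes varied by library in both groups: the 10 atrial markers on the list, Nppa among them and 7 of them tested, summed to 82.6 to 190 CPM in WT and 116 to 172 in QKO hearts, and what this has to do with Nppa was not tested.

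Gdpd3, a lysophospholipase D of the glycerophosphodiester phosphodiesterase family, had the largest rise among named protein-coding genes. It was at 0.884, 2.11, 1.504 and 1.27 CPM in WT and at 25.99, 20.5, 22.4 and 19.6 CPM in QKO hearts. The gene was close to silent in every WT heart and plainly expressed in every QKO heart, 15.3-fold higher (log2 4.02 ± 0.19, edgeR adjusted p = 5.65e-08). The 15 other tested genes of glycerophosphodiesterases and lysophospholipid enzymes had 0 calls. Gdpd1, of the same family, was at 9.77 ± 1.2 CPM in WT and 10.7 ± 0.84 in QKO (SD, n = 4 each; edgeR adjusted p = 0.824). Gm9967, a transcript on the opposite strand that shares 7568 bp with Gdpd3, was higher by 3.55 on the log2 scale, and the reads of the pair cannot be told apart.

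The 250 bases before the RefSeq start of Gdpd3, at chr7:126766164-126766413 on the plus strand of GRCm38.p6, are shown because the gene went from near 0 to expressed.

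Gdpd3: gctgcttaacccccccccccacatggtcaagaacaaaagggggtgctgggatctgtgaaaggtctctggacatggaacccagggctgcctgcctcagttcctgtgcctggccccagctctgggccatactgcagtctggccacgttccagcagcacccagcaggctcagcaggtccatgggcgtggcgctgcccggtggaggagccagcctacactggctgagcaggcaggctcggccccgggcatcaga

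This window holds none of the 3 letter patterns searched on both strands, GGAATG, TGACNNNGC and TATAAA, which occur in 12.6%, 10.2% and 12.4% of all windows.

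Ide, the insulin-degrading enzyme, was lower in QKO hearts. Its levels were 201, 187, 179 and 171 CPM in WT and 91.3, 96.9, 85.1 and 86.7 CPM in QKO. The groups did not overlap and the QKO mean was 48.7% of the WT mean (log2 -1.04 ± 0.07, edgeR adjusted p = 2.76e-06). The 25 other tested genes of insulin and insulin-like growth factor signalling had 0 calls, and Insr, the insulin receptor, was at 270 ± 9.1 and 264 ± 16 CPM (SD, n = 4 each; edgeR adjusted p = 0.931). Ppt1, a lysosomal thioesterase that removes palmitate from proteins, was at 48.8, 41.5, 39.9 and 41.7 CPM in WT and at 74.2, 73.2, 65.6 and 71.2 CPM in QKO hearts. Every QKO heart was higher (log2 0.72 ± 0.08, edgeR adjusted p = 5.24e-04). The 32 other tested lysosome and autophagy genes had 0 calls.

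Ripk4, a kinase best known in skin epithelium, was at 0.272, 0.352, 0.100 and 0.423 CPM in WT and at 1.88, 1.56, 2.28 and 2.24 CPM in QKO hearts. It was low in both groups, with 21 counts over the 4 WT and 136 over the 4 QKO hearts, and was 6.93-fold higher in QKO (log2 2.65 ± 0.37, edgeR adjusted p = 0.00647). Piwil2, a germline protein of the piRNA pathway, was at 1.07 to 1.20 CPM in WT and 0 to 0.0988 in QKO hearts. That was 72 against 5 counts, and it fell by 3.80 on the log2 scale (edgeR adjusted p = 0.00261). Hyi, named for hydroxypyruvate isomerase and annotated as a polymorphic pseudogene, was higher by 1.38, and Tceanc2, annotated with a transcription elongation factor domain, was lower, by 0.77 (log2; edgeR adjusted p = 0.00435 and 0.00207). The 5 called gene models without a proper name were all higher, by 1.47 to 4.58 on the log2 scale. Of these 3, Gm3375 and Gm12338 among them, are processed pseudogenes, whose reads can be shared with their parent genes. Gm3375 was at 0.587 to 0.879 CPM in WT and at 16.3 to 20.5 CPM in QKO hearts, far apart, while Gm12338 rested on 17 counts over the WT hearts and lost its call without WT heart 3.

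Called genes were gathered near Msra. Chromosome 14, which holds Msra, had 13 of the 28, and 2.47% of its 527 tested genes were called. They lay within 24.2 Mb, from Mhrt and Myh7 9.13 Mb on one side of Msra to Vwa8 14.4 Mb on the other (GRCm38, chromosome 14, 54968678 to 79202310). That interval had 204 tested genes. Of them 10 were called lower and 3 higher, the 3 being Myh7, Mhrt and Gm29015.

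The 9 lower genes beside Msra have unlike roles and mostly small changes. Sucla2, a subunit of succinyl-CoA ligase, was at 449, 473, 489 and 447 CPM in WT and at 359, 371, 329 and 349.7 CPM in QKO hearts, with no overlap (log2 -0.40 ± 0.07, edgeR adjusted p = 0.0254). Vwa8, a mitochondrial ATPase domain protein, Esd, an esterase, and Fndc3a, a fibronectin domain protein, fell by 0.43, 0.48 and 0.58 on the log2 scale. Slc25a37, the mitochondrial iron importer mitoferrin, fell by 0.70 and Ptk2b, a calcium-dependent tyrosine kinase, by 1.09. Lcp1 and Piwil2 are described apart. Of the genes named here Lcp1, Piwil2 and Vwa8 kept the call without any 1 library. Sucla2, Esd and Ptk2b lost it in 7 of the 8 fits without 1 library, and Fndc3a and Slc25a37 in 6.

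In the interval as a whole 121 genes lay below 0 and 83 above, with a median of -0.07. The called genes, which set the ends of the interval, are among these. Around the other targeted genes, called neighbours within 20 Mb were 1 for Msrb1, which was C4b, 0 for Msrb2 and 0 for Msrb3. Counting the targeted genes, 17 of the 28 lay within 20 Mb of an Msr gene, as did 7.89% of tested genes. Elsewhere Btaf1, an ATPase that removes the TATA-binding protein from DNA, fell by 0.46 on the log2 scale (edgeR adjusted p = 0.0254). Its call was lost in each of the 8 fits without 1 library. Btaf1 lay together with Ide on chromosome 19, and Ppt1, Tceanc2 and Hyi lay on chromosome 4. Whether these genes changed through the loss of Msr function or through DNA carried along with a targeted allele cannot be told apart with this design. Nnt, of which a deleted form is known in C57BL/6J mice, was at 448 ± 19.5 CPM in WT and 459 ± 22.7 in QKO (SD, n = 4 each, edgeR adjusted p = 0.93). Counts per whole gene do not show whether exons of Nnt were missing in either group.

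**Figure D3:**
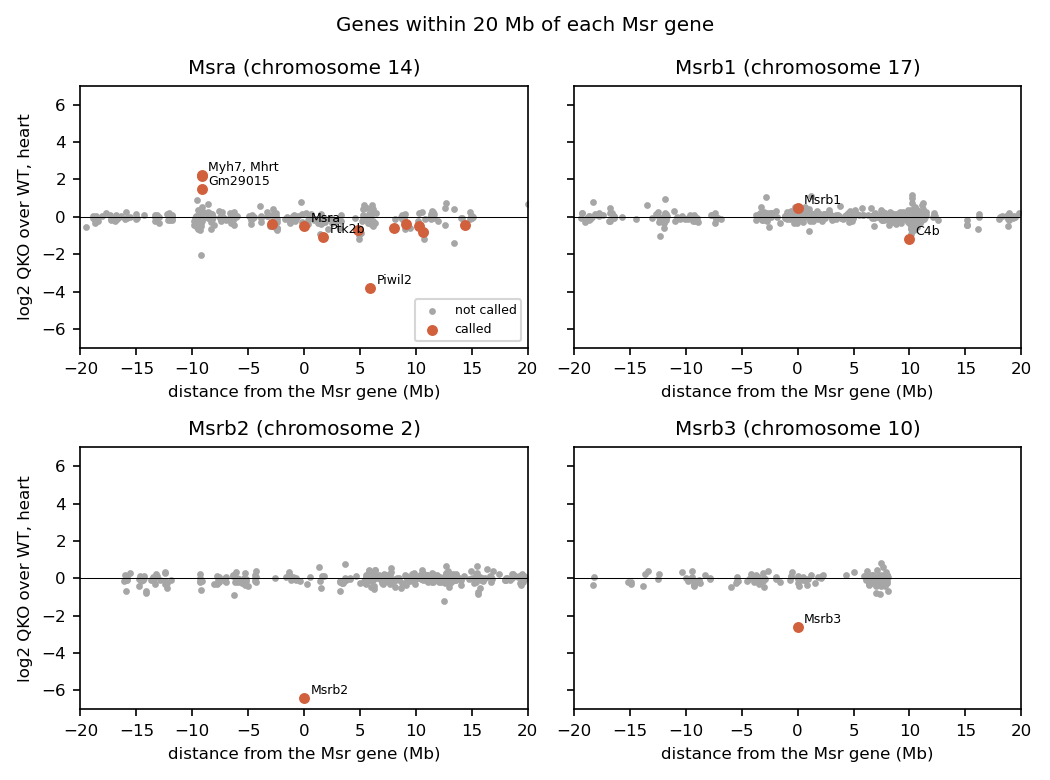
Log2 change of QKO over WT hearts (vertical axis) of every tested gene within 20 Mb of each targeted gene, against its distance from that gene in Mb; orange points passed the test. Around Msra 12 neighbours passed, around Msrb1 1 did, and around Msrb2 and Msrb3 0 did.

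Most macrophage and myeloid markers had lower levels in QKO hearts, and 1 of them passed the test. Lcp1, the leukocyte actin bundling protein plastin, was at 29.4, 28.5, 28.1 and 31.8 CPM in WT and at 18.4, 14.4, 18.9 and 15.1 CPM in QKO hearts, and fell by 0.83 ± 0.10 on the log2 scale (edgeR adjusted p = 0.00245). It also lies 10.7 Mb from Msra. Of 17 markers tested, 15 lay below 0 with a list median of -0.46, against -0.00 for all genes, and 8 of 17 had QKO hearts all below WT hearts, as did 2.47% of all genes. Their summed level was 477, 421, 443 and 539 CPM in WT and 355, 333, 403 and 365 CPM in QKO hearts. Every QKO heart was below every WT heart.

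Csf1r, the receptor that macrophages need for survival, was at 66.9, 58.8, 76.8 and 70.05 CPM in WT and at 49.0, 48.8, 56.4 and 44.1 CPM in QKO hearts. The groups did not overlap, but it did not pass (log2 -0.46 ± 0.09, edgeR adjusted p = 0.100). Cd68 was also without overlap (log2 -0.68, edgeR adjusted p = 0.499), while Adgre1 and Cd14 overlapped, with log2 changes of -0.27 and 0.12. In bulk tissue, fewer cells of a type and less RNA per cell cannot be told apart.

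Most complement and acute phase genes also had values below 0, and 1 passed. C4b, complement component 4, was at 39.9, 16.5, 30.9 and 28.9 CPM in WT and at 16.3, 12.3, 13.4 and 9.98 CPM in QKO hearts. It fell by 1.20 ± 0.21 on the log2 scale (edgeR adjusted p = 0.0491), with 1 WT heart only just above the QKO hearts, and its call was lost in 7 of the 8 fits without 1 library. It has a near copy, C4a, with which reads may be shared. Of 19 tested genes 16 lay below 0 (median -0.36). C3, the central complement component, was at 247, 161, 164 and 149.8 CPM in WT and at 128, 85.8, 113 and 80.2 CPM in QKO hearts, without overlap, and did not pass (log2 -0.83 ± 0.17, edgeR adjusted p = 0.101). The 10 hepatocyte markers, of the cell type that makes most plasma complement, also all lay below 0 (median -0.67, 0 calls). They summed to 226 to 1045 CPM in WT and 268 to 618 in QKO hearts, with Alb at 332 ± 220.5 and 192 ± 75 CPM. Their part in the complement values was not tested. Interferon response genes had 0 calls in 25 (median -0.14).

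Genes of the nuclear-encoded respiratory chain leaned the other way by a small amount. All 33 tested had log2 changes above 0, with a median of 0.10 and 0 calls, and 6 had QKO hearts all above WT hearts, as did 2.3% of all genes. Their summed level overlapped between the groups, at 22670.5 to 24361.6 CPM in WT and 23640.4 to 26857.4 in QKO hearts. Atp5a1, the alpha subunit of ATP synthase, was at 3855 ± 57.3 CPM in WT and 4166 ± 177 in QKO (SD, n = 4 each), without overlap and without passing (edgeR adjusted p = 0.787). The 13 mitochondrially encoded genes had a median of -0.26 and 0 calls, and their summed levels overlapped. In the tricarboxylic acid cycle and pyruvate list 26 of 31 lay above 0 (median 0.07), while Sucla2 was called lower.

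Most contractile and calcium genes on their lists showed similar small values. The 8 cardiomyocyte markers also all lay above 0 (median 0.09), and what this has to do with the other lists was not tested. Of 26 sarcomere and Z-disc genes 21 lay above 0 (median 0.07, 0 calls), and of 26 calcium handling and excitation genes 22 did (median 0.08, 0 calls). Myh7, called higher, was counted on the fetal and stress programme list and is not on the sarcomere and Z-disc list. Cacna1c, the pore of the L-type calcium channel, was at 477 ± 28 CPM in WT and 552 ± 17 in QKO (SD, n = 4 each), without overlap and without passing (log2 0.21, edgeR adjusted p = 0.541). Atp2a2, the calcium pump of the sarcoplasmic reticulum, and Pln, its inhibitor, had log2 changes of 0.00 and 0.02. Glycolysis and glycogen genes lay above 0 in 21 of 26 (median 0.07, 0 calls) and fatty acid oxidation genes in 19 of 30 (median 0.03, 0 calls).

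Protective systems against oxidants were close to the WT level. The 34 tested antioxidant enzymes and NRF2 targets had 16 above 0 and 18 below, a median of -0.00 and 0 calls. Nqo1, a classic NRF2 target, was at 66.6 ± 6.8 CPM in WT and 66.3 ± 9.1 in QKO (SD, n = 4 each; edgeR adjusted p = 0.985). Sod2, mitochondrial superoxide dismutase, had a log2 change of 0.05 and Cat, catalase, of -0.09, and neither passed. The 22 methionine cycle and transsulfuration genes split 11 to 11 with 0 calls. The 17 tested genes of the selenoprotein list split 9 above to 8 below with 0 calls. That list leaves out Msrb1, a selenoprotein that was called higher.

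Unfolded protein response genes were below 0 in 24 of 27 (median -0.16), with 0 calls. In 7 of 27 QKO hearts were all lower, as in 2.47% of all genes. Xbp1, a transcription factor of this response, was at 68.4 ± 6.1 CPM in WT and 59.1 ± 0.78 in QKO (SD, n = 4 each; log2 -0.21, edgeR adjusted p = 0.608), and Hspa5, the main chaperone of the endoplasmic reticulum, had a log2 change of -0.22. Heat shock genes and chaperones split 10 above to 16 below (median -0.02, 0 calls). Extracellular matrix genes were below 0 in 27 of 38 (median -0.07, 0 calls), with Col1a1 at 65.5 ± 5.2 CPM in WT and 63.4 ± 7.6 in QKO. Endothelial markers had a median of 0.07 and fibroblast markers of -0.06, both with 0 calls. The 7 tested mesothelial markers all lay below 0, and the 10 on the list had summed levels of 25.6 to 29.4 CPM in WT and 18.2 to 25.004 in QKO, and 0 of 7 lung epithelium markers reached the level tested.

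**Figure D4:**
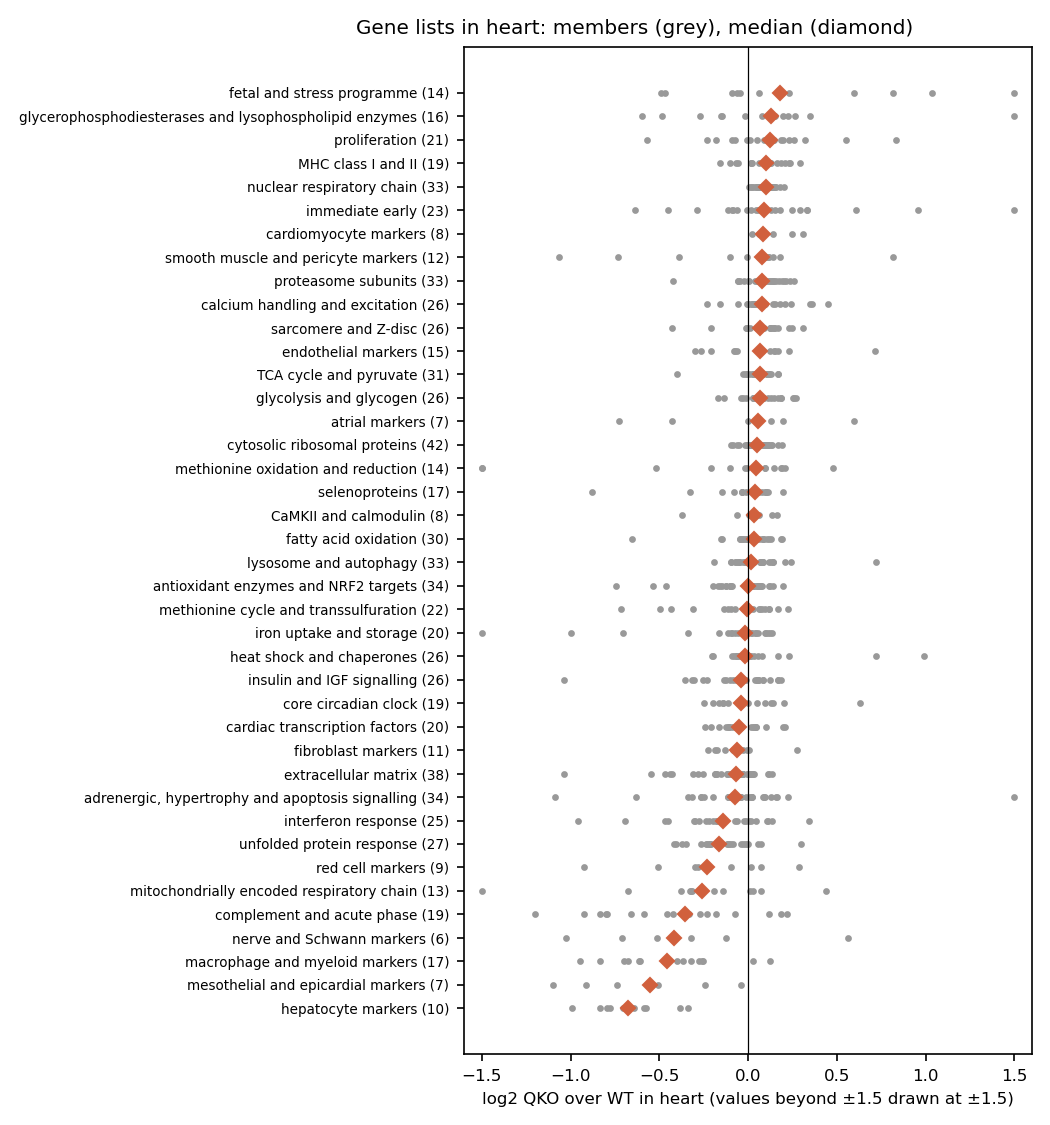
Gene lists with 6 or more tested members (number in brackets), ordered by the median log2 change of QKO over WT hearts (orange diamond); grey points are members, and values beyond ±1.5 are drawn at the edge. Most medians lie near 0. The lowest are those of hepatocyte markers, at -0.67, and mesothelial and epicardial markers, at -0.55. Macrophage and myeloid markers follow at -0.46 and nerve and Schwann markers at -0.42. The nuclear respiratory chain, at 0.10, and the cardiomyocyte markers, at 0.09, are wholly above 0.

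In the livers of the same animals 15 genes were called (0.0831% of those tested), and 7 were called in both tissues: Msrb2, Msrb3, Gdpd3, Ide, Gm3375, Gm9967 and Gm12338. They were 25% of the heart calls and 46.7% of the liver calls. Of the 25 heart genes that could be tested in liver, 23 had the same sign there. Gdpd3 rose from 0.597 to 10.1 CPM on average in liver and Ide fell from 153 to 66.4.

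A difference between the heart and liver effects passed in 1 gene (0.00513% of those tested). Ripk4 was at 14.4 CPM in WT and 15.7 CPM in QKO livers, and the difference of the effects was 2.53 ± 0.30 on the log2 scale (edgeR adjusted p = 0.00276). With the animal as a block, since heart and liver came from the same animals, 0 genes passed, and Ripk4 was at 2.54 ± 0.35 (edgeR adjusted p = 0.0652). Myh7 was at 0.378, 0.0257, 0.153 and 11.3 CPM in WT livers and at 0.837, 1.90, 1.15 and 1.62 CPM in QKO livers. WT liver 4 alone was above the QKO livers and the other 3 WT livers were below them, so the liver direction rests on that library, and the difference between tissues did not pass. Msrb1 had a log2 change of -0.38 in liver against 0.48 in heart, and the difference did not pass either (0.87 ± 0.21, edgeR adjusted p = 0.786).

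**Figure D5:**
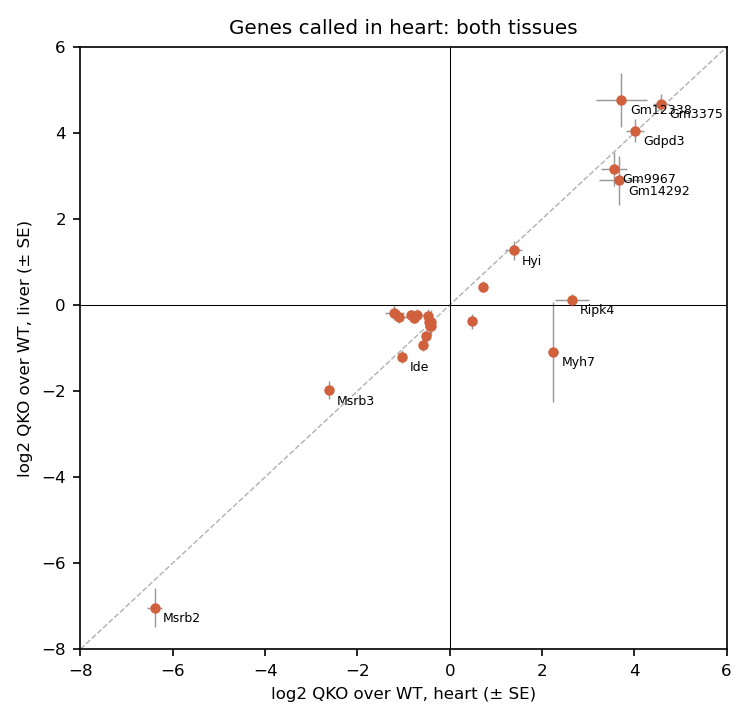
Log2 change of QKO over WT with its SE in heart (horizontal) and liver (vertical) for the 25 genes called in heart and tested in liver; the dashed line marks equal changes. Gdpd3, Ide, Msrb2 and Msrb3 lie near the line, while Ripk4 has a change of 2.65 in heart and 0.12 in liver.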

How the data were processed

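RNA was measured in 8 hearts and, for 1 comparison, 8 livers. The deposited values were raw counts per Ensembl gene, and 0 columns were left out. Per the submitters' processing notes the tools included HISAT2, featureCounts, cutadapt, FastQC, bcl2fastq, CASAVA and limma, and the build was mm10; the strand setting and annotation of the counting are not given in the sources used here. Of 48709 identifiers 48349 matched GENCODE M21 (GRCm38, the assembly of mm10) without the version. Sequences came from RefSeq, GRCm38.p6, whose promoter table had 14 of the 28 called genes.

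Library sizes were sums over 21695 protein-coding genes, scaled by TMM. Hearts were fitted alone, unpaired, in edgeR 4.0.16 (R 4.3.3; quasi-likelihood F test) after its expression filter. Adjusted p-values are Benjamini-Hochberg over all tested genes, with a threshold of 0.05. The SE is the log2 change divided by the square root of F. The fit was tested on simulated data, with 50 genes changed at each fold. It recovered 44% of them at 1.5-fold, 78% at 2-fold, 100% at 4-fold and 96% at 8-fold. Of its calls there, 7.56% were unchanged genes, so small changes can be missed. No 2 libraries of a group were copies (chi-square per gene at least 26.3). The difference between tissues was an interaction in 1 fit of 16 libraries. Named were the Msr genes, called genes with a proper name, up to 4 called gene models, and per list the called and first 4 members, with the whole fetal list. Nnt, Mir208b and list members outside this rule were named after their values were seen. Of the called genes, 1 is not reported here by name. Members and lists were chosen with earlier results of these data known. Alternatives were other tools (DESeq2 1.42.0, limma 3.58.1), scalings, filters, covariates and sets of libraries; the library sizes without Lars2 and the Rn7s1 covariate were added after seeing the data.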

Additional observations from a re-analysis of the deposited data

Results flagged for a closer look

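Of 88 groups of 4 hearts checked for a library far from the others, 4 had one, and chance gives about 1 in 20. All 4 were in the QKO group, and 3 were in QKO heart 1. Myh7 was at 2139.8 CPM there, above the other QKO hearts at 1904 to 1941, and Mhrt, which overlaps it, was at 544 CPM there. Nppb was at 41.8 CPM in QKO heart 1, below 116, 111 and 110.3 CPM in the others. The protein-coding count of QKO heart 4 was 28.2 M, above the other 3, and that heart also had the least nuclear rRNA. Without QKO heart 1, Myh7 and Mhrt kept their calls.

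The heart effect of Ripk4 differed from its liver effect by 2.53 on the log2 scale (edgeR adjusted p = 0.00276, interaction in a fit of 16 libraries). With the animal as a block it did not pass (edgeR adjusted p = 0.0652). Its level was higher in 4 of 4 QKO hearts than in any WT heart. The cause of these differences was not tested.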

How the results depend on the processing

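The number of genes called in heart, 28, was 64 with DESeq2, 102 without the low-count filter, 14 against a fold of 1.3, 11 without genes within 20 Mb of an Msr gene, 15 with all 16 libraries in 1 fit, 99 within animal series 47 and 30 within series 48. These series are the first 2 digits of the animal numbers, a split made here that the labels do not name. Each series holds 2 hearts per group. The number called was 18 to 25 without 1 library, with 18 without WT heart 1, QKO heart 2 or QKO heart 4. Other scalings gave 28 or 29. DESeq2 called all 28. With the replicate number as a block, 50 were called; same-numbered hearts correlated at 0.0991, 0.0973, 0.0210 and 0.346, so the numbers were not taken as pairs. With the animal as a block, 0 genes differed between tissues. In fits without that block, 1 or 2 genes differed when 1 animal was left out. The second, without WT animal 4, was Acot11, named after its values were seen. Msra did not pass against a fold of 1.3 (log2 -0.52), with the Rn7s1 covariate (-0.51), in the fit of 16 libraries (-0.52) or within series 47 (-0.59) and 48 (-0.45), and without 1 library it ranged from -0.57 to -0.48. Msrb1 did not pass against a fold of 1.3 (0.48), with the rRNA covariate (0.44), with Rn7s1 (0.49), in the fit of 16 (0.48), without both replicate 4 hearts (0.37) or within series 47 (0.30), and without 1 library it ranged from 0.41 to 0.54. Called list members, 14, were 8 to 11 without 1 library. Within 5 Mb of an Msr gene there were 7 called genes, of which 3 were not Msr genes. These 3 lay around Msra. The 5 Mb windows held 2.08% of tested genes. The cause was not tested. With the rRNA covariate Ptk2b and C4b also lost their calls, and without both replicate 4 hearts Hyi, Esd, Btaf1, Slc25a37, Sucla2, Ptk2b and C4b did. Of 528 list medians under other settings, 514 moved by less than 1 SD. Genes with few counts, such as Ripk4 and Piwil2, are limited by depth.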
